A study of Mus musculus with 8 samples.

Results

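The experiment described here was the hexane fraction alone: 2 arrays of BV-2 cells given the hexane fraction (HF) of the mushroom Amauroderma rugosum, set against 2 arrays of untreated BV-2 cells, 4 of the 8 arrays in the series. The arrays were chosen by the treatment in their labels, so no measured value entered the choice. Control cells received neither agent. HF cells received HF at 100 µg/mL for 24 h with no lipopolysaccharide (LPS). The remaining 4 arrays, used for the shared estimate of spread and for 1 side comparison, were of cells given LPS at 1 µg/mL or LPS at 1 µg/mL with HF at 100 µg/mL, also for 24 h. All 8 cultures were of the same mouse microglial line, which was made by retroviral immortalisation, so every group carries that modification and the groups model 1 line rather than microglia in tissue. The labels call the 2 samples of a group biological duplicates but do not say that they came from separate passages or days. The p-values below therefore measure only the spread between these samples, which may be technical. The solvent that carried HF is not given in the sources used here.

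Microglia are the resident macrophages of the brain, and BV-2 is a widely used laboratory stand-in for them. At rest such cells keep a low level of type I interferon signalling, in which interferon binds its receptor and the signal switches on interferon-stimulated genes through a sequence called the interferon-stimulated response element. They also make complement C1q, scavenger receptors and lipid-carrying proteins that serve the uptake of debris. A fraction drawn with hexane holds the fat-soluble compounds of a fungus, and what single compounds it held is not given in the sources used here.

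With HF alone more genes passed lower than higher. Of 22403 genes tested, 148 fell and 13 rose at an adjusted p under 0.05 (limma with Benjamini-Hochberg adjustment), which is 0.661% and 0.058% of the genes, or 0.719% in either direction. The split was less uneven after a correction for local dimming, with 1282 lower and 1046 higher, and without control replicate 1, with 345 lower and 103 higher. The fitted difference was at least 2-fold for all 161, but 28 of the falls were below background on both HF arrays, 4 of these on both control arrays too, so their folds are bounds or are not given. For all 161 both HF arrays lay on the same side of both control arrays. Genes whose HF arrays both lay below both control arrays made up 25.6% of all genes, and those with both above made up 20.4%. The median difference over all genes was -0.07 (log2, HF minus control). The genes that fell included interferon-stimulated genes such as Rtp4 and Isg15, 4 genes of the stefin A cluster, Arg1 and all 3 chains of complement C1q. The rises included Lbp, Wnt10a and Nfkbia.

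Before the values, the arrays themselves need a description. Signals were one-colour Agilent intensities, and each array's 75th percentile, used for scaling, was 247 and 262 on the control arrays and 346 and 472 on the HF arrays. Control replicate 1 stood apart: repeated probes on it had a coefficient of variation of 48.9%, against 8.06% on HF replicate 1 and 3.77 to 4.59% on the other 6 arrays, and 13.1% of its spots lay in patches dimmed by more than 4-fold. The replicate difference had an SD of 0.99 (log2) between the control arrays and 0.48 between the HF arrays. The sign of all 161 genes against control replicate 2 alone follows from the separation of the arrays given above, so it is no further check. In a fit without control replicate 1, the lone control array is assumed to vary like the other groups. After a correction for local dimming 158 of the 161 passed, where 10.4% of all genes did. This correction also left out spots in patches dimmed by more than 4-fold. For 2726 of the 22403 genes, 12 of the 161 among them, only control replicate 2 then remained. For those genes too the lone control array is assumed to vary like the other groups. All arrays that received HF lay in the second row of the slide and all others in the first, so a difference between slide rows and the presence of HF cannot be told apart.

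Spot rows 1 to 70, counted within each array, carried a second irregularity. Among 10051 probes with spots in rows 1 to 70, 2.87% were above background on 1 of the HF arrays and on no other array, for each HF array, against 0.199 to 0.816% for the 4 arrays without HF. The arrays with LPS and HF had 2.34 and 2.26% there. Among the 45264 probes whose spots lay beyond row 70 the same share was 0.393 to 1.03% over all 8 arrays. The 632 probes bright only on HF arrays in rows 1 to 70, of which 56 would have passed the filter on dim probes, were treated as a surface artefact and left out. With them kept, 32 genes rose and 166 fell. With every probe in rows 1 to 70 left out, 8 rose and 108 fell. Of the genes reported here, 5 of the 13 rises and 31 of the 148 falls lay in those rows, where 19.3% of all tested genes lay.

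**Figure D1:**
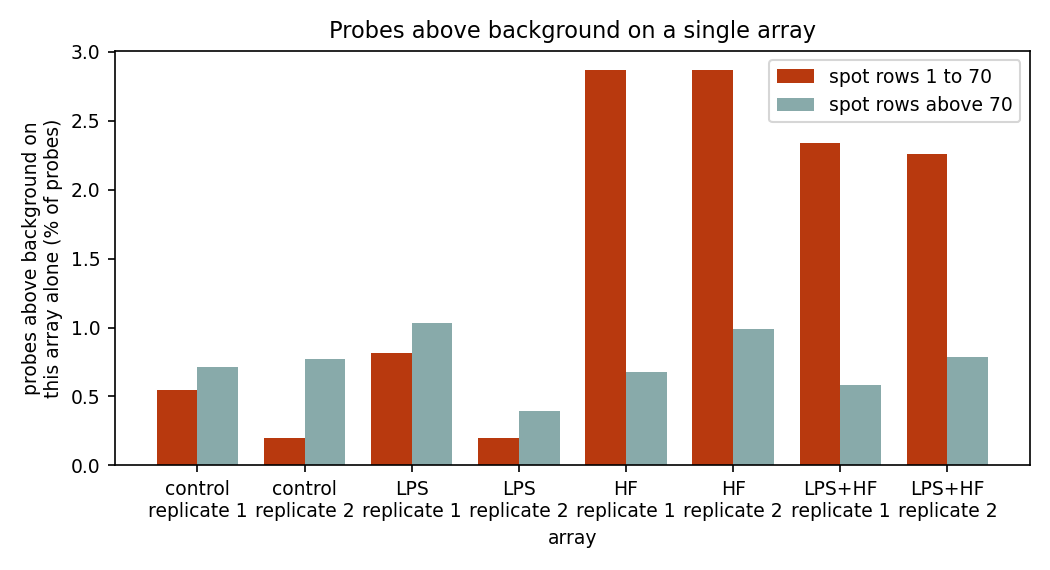
Share of probes (percent) above background on one array and on no other, for each of the 8 arrays, with probes in spot rows 1 to 70 and probes beyond row 70 plotted separately. The HF arrays stand at 2.87% in rows 1 to 70, and the arrays without HF stay between 0.199 and 0.816% there.

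The calls depend on how the spread is estimated. The fit took its spread from all 8 arrays, with 4 residual degrees of freedom. On simulated data this fit called 0.31% of unchanged genes, against 0.719% of all genes passing here. False calls may thus make up far more than 0.05 of the 161 genes. In a fit of the 4 HF and control arrays alone no gene passed (0.0%), with 1684 genes at an unadjusted p under 0.05, against 4390 in the fit of all 8. With median scaling, which moves the median of all genes from -0.07 to 0.32, no gene rose and 12 fell. Over the 25 settings, wherever its probe was kept, each of the 35 named genes that passed had the sign of the reported fit. These genes were chosen for HF arrays on one side of both control arrays and a difference of at least 1 (log2) from control replicate 2. They also had to keep their sign after the spatial correction, so the steady signs follow largely from the choice.

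**Figure D2:**
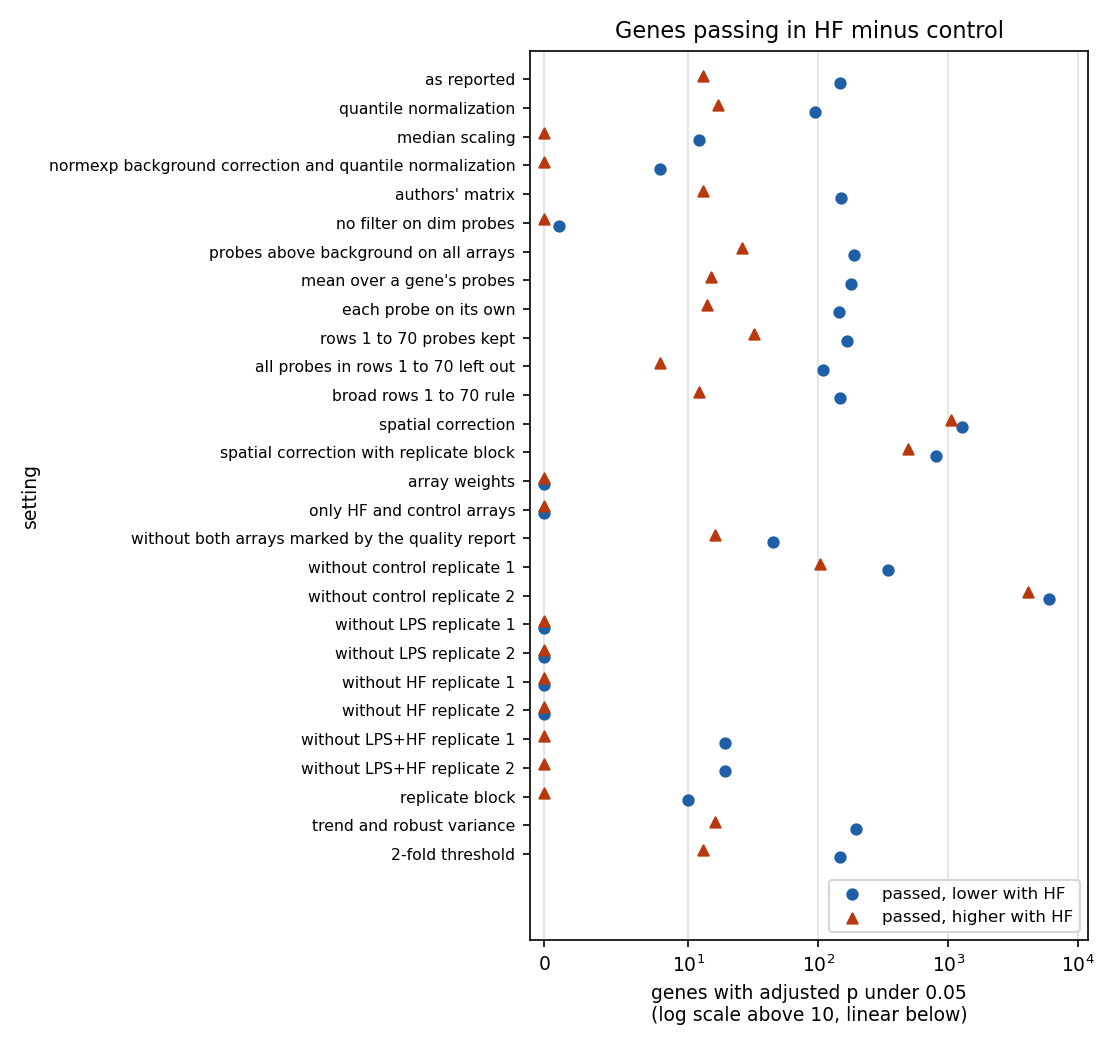
Number of genes that passed (adjusted p under 0.05), higher and lower with HF, under the reported fit and each alternative setting, on a symmetric log axis. The reported fit gives 13 higher and 148 lower, and the fit of the 4 HF and control arrays alone gives 0 and 0.

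Levels below are log2 signal relative to the array's 75th percentile, so 0 is that percentile, and differences are HF minus control on the same scale with the standard error of the fit (n = 2 per group). The small number of arrays limits their precision. In bulk RNA, fewer cells of a type and less RNA per cell cannot be told apart.

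Interferon-stimulated genes accounted for 10 of the 148 falls. Of 41 measured genes of a 46-gene list, 10 fell, 0 rose and 31 did not pass, against 0.661% of all genes that fell. The median difference over the 41 was -1.13, against -0.07 over all genes, and it was -1.43 against control replicate 2 alone. For 30 of the 41 both HF arrays lay below both control arrays, as for 25.6% of all genes. After the spatial correction 31 of the 41 passed lower, where 5.72% of all genes did, and without control replicate 1 it was 21, where 1.54% did. The list's median stayed below 0 under all 25 settings, from -1.43 to -0.58.

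Among the effectors, Rtp4, a receptor-transporting protein with antiviral activity, had the largest fall. Its level was 3.44 and 2.87 on the control arrays and -1.20 and -1.21 on the HF arrays. Both HF arrays lay far below both control arrays, a difference of -4.36 ± 0.24 (SE), or 20.5-fold lower, with adjusted p = 0.0105 (limma). Ifi44, an interferon-induced protein, read -0.22 and -0.84 on the control arrays and -4.80 and -4.26 on the HF arrays, and only 1 of the HF arrays was above background. The fall was -4.00 ± 0.34 (SE), with adjusted p = 0.0228 (limma). Isg15, a ubiquitin-like protein that is attached to other proteins, read 4.23 and 3.47 on the control arrays and 1.07 and 1.06 on the HF arrays. The control arrays differed from each other by more than the HF arrays did, and Isg15 was still 6.89-fold lower (-2.79 ± 0.29 SE, adjusted p = 0.0265, limma). A second Isg15 probe had a difference of -1.54 and did not pass. Ifit3, which binds viral RNA together with other Ifit proteins, read -2.29 and -1.97 on the control arrays, and both HF arrays were below background at -4.91 and -4.82. It was at least 4.50-fold lower (adjusted p = 0.0252, limma), and its spot was in a dimmed patch of control replicate 1.

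Cxcl10, the chemokine that draws T cells through the receptor CXCR3, read -0.10 and -0.31 on the control arrays and -2.25 and -2.13 on the HF arrays. It was 3.96-fold lower (-1.99 ± 0.15 SE, adjusted p = 0.0147, limma). Usp18, which removes Isg15 from proteins and restrains the interferon receptor, differed by -1.76, and Oas2, which makes the second messenger that activates RNase L, by -1.75. Cmpk2, a mitochondrial nucleotide kinase, differed by -1.91, and Samd9l, an antiviral protein, by -1.79. These 4 all passed, with adjusted p from 0.0248 to 0.0285 (limma). Trim30a passed too (-2.28), but it was below background on both control and both HF arrays, so no fold is given.

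The factors and sensors of the pathway were lower in value without passing. Irf7, the factor that amplifies interferon production, read 0.79 and 1.95 on the control arrays and -0.17 on both HF arrays, a difference of -1.54 (adjusted p = 0.137, limma). Stat2 differed by -0.68 and Irf9 by -0.12, and the control arrays alone spanned 0.58 to 2.69 for Irf9. The RNA sensors Ddx58 and Ifih1 differed by -1.13 and -0.93, with adjusted p of 0.0743 and 0.134 (limma). Zbp1, a sensor of left-handed nucleic acid, came nearer the threshold (-1.72, adjusted p = 0.0609, limma). Members that were not lower in value were Irgm1 (0.65), Gbp5 (0.08) and Parp14 (0.01). Irgm1 read -0.51 and 2.15 on the control arrays, so its HF values of 1.38 and 1.56 lay between them.

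The promoters of 4 of the falling genes are shown because they differ in matches to a fixed form of the core of the interferon-stimulated response element. The letters searched were GAAANNGAAA on both strands, with overlapping matches counted, in RefSeq promoters of build GRCm38.p6 that run from 250 bases before to 50 after the gene's start. Matches are in capitals, and each sequence reads 5′ to 3′ on the gene's strand. Isg15 lies at chr4:156200769-156201068 (minus strand) with 3 overlapping matches, Ifit3 at chr19:34583279-34583578 (plus strand) with 2 matches on the opposite strand, Cxcl10 at chr5:92348840-92349139 (minus strand) with 1 match, and Ifi44 at chr3:151749861-151750160 (minus strand) with 0.
Isg15: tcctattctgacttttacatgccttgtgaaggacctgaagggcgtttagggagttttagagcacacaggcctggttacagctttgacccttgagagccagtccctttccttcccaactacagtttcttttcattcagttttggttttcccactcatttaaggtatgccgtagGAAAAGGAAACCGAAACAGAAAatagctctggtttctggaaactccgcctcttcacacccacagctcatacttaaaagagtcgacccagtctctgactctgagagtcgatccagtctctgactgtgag
Ifit3: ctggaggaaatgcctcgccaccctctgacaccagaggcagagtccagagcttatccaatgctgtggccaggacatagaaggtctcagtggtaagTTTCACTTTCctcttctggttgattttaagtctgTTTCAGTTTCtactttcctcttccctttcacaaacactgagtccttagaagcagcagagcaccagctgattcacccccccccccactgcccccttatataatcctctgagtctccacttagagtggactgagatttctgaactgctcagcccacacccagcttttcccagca
Cxcl10: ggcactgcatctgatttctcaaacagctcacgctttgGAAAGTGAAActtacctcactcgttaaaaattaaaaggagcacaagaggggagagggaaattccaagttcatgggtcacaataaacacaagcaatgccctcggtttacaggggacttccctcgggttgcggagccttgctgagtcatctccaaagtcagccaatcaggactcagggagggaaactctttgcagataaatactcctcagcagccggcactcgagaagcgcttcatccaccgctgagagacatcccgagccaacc
Ifi44: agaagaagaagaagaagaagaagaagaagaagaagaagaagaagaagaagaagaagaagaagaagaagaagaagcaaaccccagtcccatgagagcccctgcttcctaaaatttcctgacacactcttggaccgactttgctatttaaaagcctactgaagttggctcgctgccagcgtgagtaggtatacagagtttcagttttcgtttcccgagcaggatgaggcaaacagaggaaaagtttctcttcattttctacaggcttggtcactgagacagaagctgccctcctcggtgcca

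The match was found in 3.44% of all 32851 promoters and in 3.22% of the 13901 promoters of tested genes. Of the measured interferon-stimulated genes, 33 had an entry, with 39 promoters, and 19 of these (48.7%) held it. Among list members that fell, 7 had an entry and 5 of their 8 promoters held it. Among genes that fell outside the list, 9 of 86 promoters held it (10.5%), and among the rises 0 of 4. These matches describe letters in a window and were not tested as binding sites. Only the searched spacing counts as a match. The Ifi44 promoter holds TTTC repeats (GAAA on the opposite strand) at other spacings, so 0 matches does not show that it lacks the element. The first match in Isg15 begins at position -78 from the gene's start.

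Several interferon-linked families outside the fixed list also had members that fell; these were chosen after their values were seen. Over all genes 0.661% fell. The p200 family, DNA-binding proteins that include nucleic acid sensors, had 2 falls among 6 measured members. Ifi211 read 2.20 and 1.18 on the control arrays and -1.96 and -2.13 on the HF arrays, 13.3-fold lower (adjusted p = 0.0248, limma), and Mndal differed by -1.66. Ifi208 of the same family differed by 0.68 and did not pass. Of 3 Phf11 genes 2 fell (Phf11b, -1.66, and Phf11d, -1.65), of 6 Slfn genes only Slfn2 (-1.83), and of 5 Ifitm genes only Ifitm3 (-1.74), which blocks viral entry. Members of such families can share sequence, and a probe may read more than 1 of them.

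Another 4 of the falls were stefin A genes. They lie together on chromosome 16 and encode small inhibitors of cysteine cathepsins; the group was put together after its values were seen. Of 7 measured members 4 fell, where 0.661% of all genes did. All 7 were lower in value, as were 12440 of all 22403 genes, with a median of -3.47. Csta2 read 4.38 and 4.42 on the control arrays and 0.86 and 0.74 on the HF arrays. The arrays of each group nearly coincided, and the difference of -3.60 ± 0.14 (SE), 12.1-fold, had adjusted p = 0.00551 (limma). Cstdc5 read 3.23 and 2.62 on the control arrays against -0.77 and -1.05, and was 14.3-fold lower. Cstdc4 read 1.79 and 1.82 against -1.85 and -2.06, and was 13.6-fold lower. Stfa2l1 read 1.38 and 1.24 against -1.95 and -2.37, and was 11.1-fold lower. All 3 had adjusted p of 0.0147 or below (limma). Csta3 (-2.76) and Stfa3 (-1.11) were lower without passing, and Stfa2 differed by -0.03. The genes are near copies of each other, so their probes may share signal and the 4 falls are uncertain as separate results.

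The promoters of 3 of these genes are shown because they share a run of 19 bases, in capitals, that Csta2 does not have (RefSeq, GRCm38.p6, 5′ to 3′ on the gene's strand). They are Stfa2l1 at chr16:36156561-36156860 (plus strand), Cstdc4 at chr16:36183962-36184261 (plus strand) and Cstdc5 at chr16:36367521-36367820 (minus strand).
Stfa2l1: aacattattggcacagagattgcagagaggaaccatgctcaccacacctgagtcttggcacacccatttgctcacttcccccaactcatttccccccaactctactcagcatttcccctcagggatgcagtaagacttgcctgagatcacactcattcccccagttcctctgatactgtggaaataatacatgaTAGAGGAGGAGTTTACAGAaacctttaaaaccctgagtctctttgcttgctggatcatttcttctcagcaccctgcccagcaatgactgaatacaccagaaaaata
Cstdc4: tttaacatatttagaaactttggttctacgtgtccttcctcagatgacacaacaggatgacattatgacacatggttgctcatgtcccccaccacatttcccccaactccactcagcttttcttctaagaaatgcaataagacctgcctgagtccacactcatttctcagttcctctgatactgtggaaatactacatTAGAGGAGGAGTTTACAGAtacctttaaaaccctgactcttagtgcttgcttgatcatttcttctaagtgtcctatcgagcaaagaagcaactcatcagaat
Cstdc5: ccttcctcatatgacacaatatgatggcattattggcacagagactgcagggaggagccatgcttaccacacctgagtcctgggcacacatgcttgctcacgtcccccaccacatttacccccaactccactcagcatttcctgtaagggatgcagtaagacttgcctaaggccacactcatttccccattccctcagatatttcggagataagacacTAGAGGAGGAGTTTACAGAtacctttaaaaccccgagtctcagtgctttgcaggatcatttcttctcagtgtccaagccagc

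The run starts 56, 52 and 32 bases before the gene's start in Stfa2l1, Cstdc4 and Cstdc5. It was found in 4 of the 32851 promoters, and the fourth belongs to another member of the cluster, Cstdc3. None of the 3 holds the interferon motif above. The run describes shared letters between neighbouring copies.

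**Figure D3:**
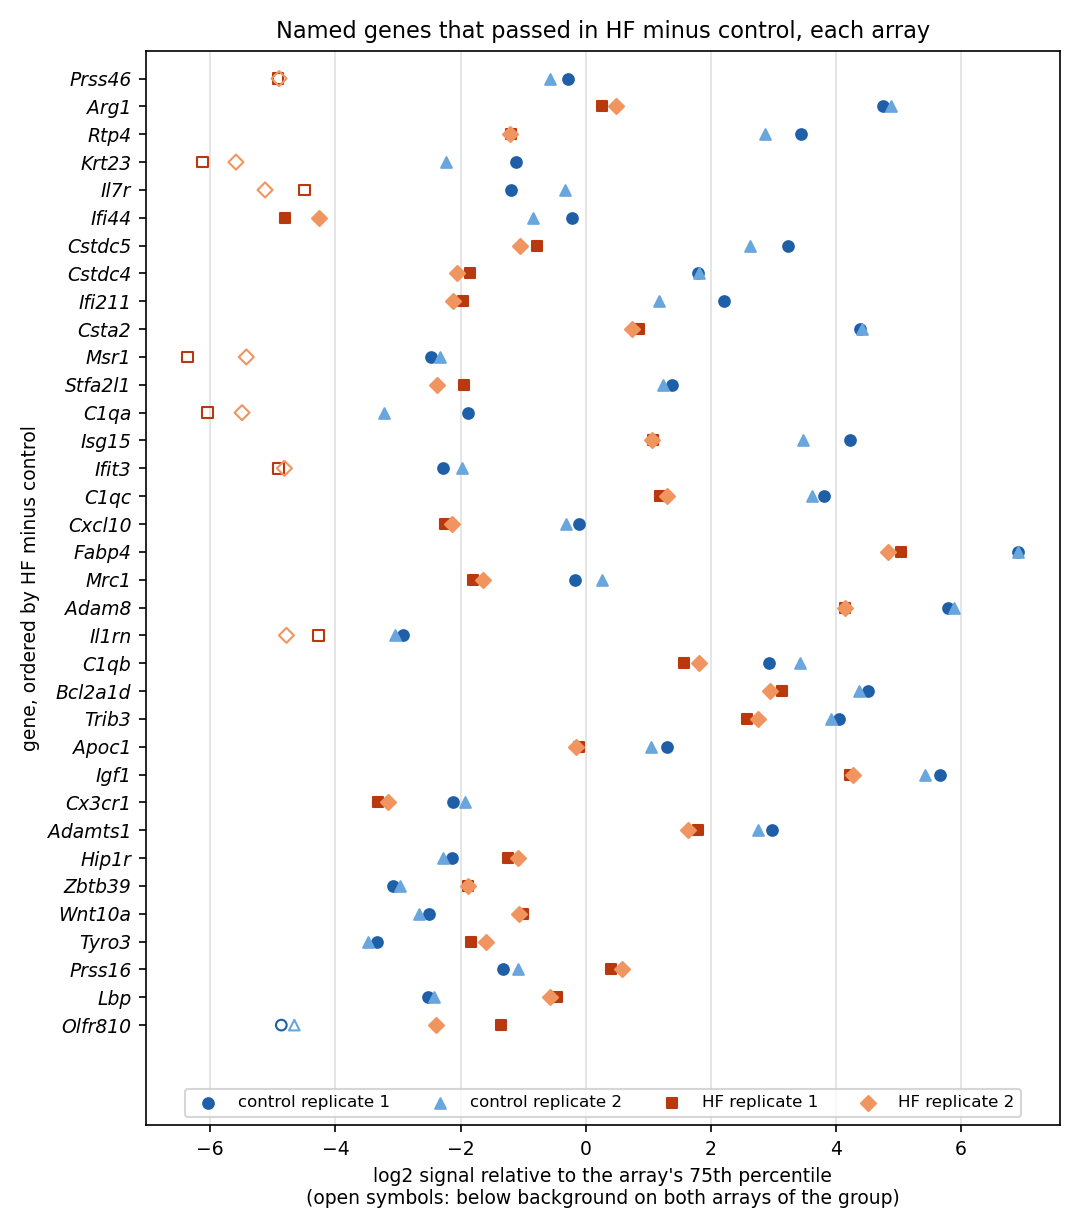
Levels of the 35 named genes that passed, on the 2 control and 2 HF arrays (log2 relative to each array's 75th percentile); open symbols mark genes below background on both arrays of a group. For each gene the HF arrays lie on one side of both control arrays, with Arg1 21.7-fold lower and Lbp 3.88-fold higher among the genes measured on all 4 arrays.

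Complement C1q, the molecule that opens the classical complement pathway and tags debris for uptake, was lower in all 3 of its chains. C1qc read 3.81 and 3.61 on the control arrays and 1.18 and 1.30 on the HF arrays, 5.53-fold lower (-2.47 ± 0.15 SE, adjusted p = 0.0121, limma). C1qb read 2.93 and 3.43 against 1.58 and 1.81, 2.81-fold lower (adjusted p = 0.0487, limma). C1qa was near background, at -1.88 and -3.22 on the control arrays, 1 of them above background, and below background on both HF arrays at -6.04 and -5.49, and was at least 3.36-fold lower (adjusted p = 0.0494, limma). These were the only falls among 18 measured complement genes, where 0.661% of all genes fell. In value 16 of the 18 were lower, as were 12440 of all 22403 genes. Their median was -0.55, against -0.07 over all genes. C3, the central complement component, differed by 0.31 and did not pass (adjusted p = 0.389, limma). The C1q chains were joined as a family after their values were seen.

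Genes of alternative macrophage activation, a state linked to tissue repair, included some of the largest falls. Arg1, the arginase that competes with nitric oxide synthase for arginine, read 4.75 and 4.87 on the control arrays and 0.25 and 0.49 on the HF arrays. The 21.7-fold fall (-4.44 ± 0.42 SE) had adjusted p = 0.0248 (limma). Mrc1, the mannose receptor CD206, read -0.16 and 0.26 against -1.80 and -1.64 and was 3.41-fold lower (adjusted p = 0.0313, limma). Msr1, the class A scavenger receptor, was below background on both HF arrays and at least 3.72-fold lower (adjusted p = 0.0232, limma), and both of its probes passed. Of 15 measured genes of this list 3 fell and 0 rose, where 0.661% of all genes fell and 0.058% rose. The median was -0.08, close to that of all genes (0.31 with median scaling, against 0.32). Clec10a, a C-type lectin, differed by -0.88 without passing (adjusted p = 0.150, limma).

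Genes that mark lipid-handling, disease-associated microglia were mostly lower in value. Of 23 measured 2 fell, where 0.661% of all genes did. In value 20 were lower, as were 12440 of all 22403 genes, and the median was -0.54. After the spatial correction 13 of the 23 passed lower, where 5.72% of all genes did, and 0 higher, where 4.67% did. Igf1, a growth factor made by microglia, read 5.66 and 5.42 on the control arrays and 4.22 and 4.26 on the HF arrays, 2.46-fold lower (adjusted p = 0.0451, limma). Its 4 probes ranged from -1.30 to -0.43, and none passed when each probe was tested on its own. Fabp5, a fatty acid carrier, differed by -1.05 (adjusted p = 0.0434, limma). Spp1, osteopontin, differed by -1.25 and Trem2, the lipid-sensing receptor of this state, by -0.62, neither passing. Fabp4, a second fatty acid carrier and a target of PPARγ, read 6.90 and 6.91 against 5.03 and 4.84 and was 3.93-fold lower (adjusted p = 0.0405, limma). The PPAR and fatty acid oxidation list that holds both carriers had no other fall among 19 measured, and a median of 0.05. Cd36, the fatty acid receptor in that list, differed by -1.99 (adjusted p = 0.0645, limma). Of the apolipoproteins, Apoc1 read 1.30 and 1.04 against -0.11 and -0.15 and was 2.47-fold lower (adjusted p = 0.0479, limma), the only fall among 17 measured genes of cholesterol efflux and lipid droplets.

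Of 19 measured homeostatic microglial genes 1 fell, where 0.661% of all genes did. The median was -0.17, or 0.21 with median scaling, where that of all genes was 0.32. The fall was Cx3cr1, the receptor for the neuronal chemokine fractalkine, at -2.12 and -1.92 on the control arrays and -3.32 and -3.17 on the HF arrays (2.33-fold, adjusted p = 0.0329, limma). P2ry12, the ADP receptor of resting microglia, differed by -1.20 (adjusted p = 0.0814, limma), and Tmem119 by -0.13. As a check of the cell type, 12 of 12 general microglia and macrophage markers were above background on both control and both HF arrays, and Tmem119, P2ry12 and Cx3cr1 were on both control arrays, while Sall1, which marks microglia in tissue, was not above background on both arrays of any group. Summed as multiples of the 75th percentile, the 12 markers came to 1130 and 1075 on the control arrays and 823 and 824 on the HF arrays. The sums of the neuron list were 8.84 and 11.4 against 7.68 and 7.24, of the oligodendrocyte list 51.2 and 67.2 against 60.8 and 34.0, of the fibroblast and endothelial list 0.691 and 0.596 against 0.607 and 0.497, and of the lymphocyte list 27.6 and 11.7 against 13.7 and 10.98. The astrocyte list came to 20.3 and 151 on the control arrays and 97.2 and 114 on the HF arrays. On both control arrays 3 of 8 astrocyte, 1 of 8 neuron, 6 of 8 oligodendrocyte, 2 of 8 fibroblast and endothelial and 4 of 7 lymphocyte markers on the array were above background, and none of these markers passed. Their part in the results was not tested.

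Secreted proteases and their regulators included 2 falls among 12 measured, where 0.661% of all genes fell. Their median was -0.89, or -0.36 against control replicate 2 alone. Adam8, a membrane metalloprotease of myeloid cells, read 5.80 and 5.88 on the control arrays and 4.15 on both HF arrays, 3.22-fold lower (adjusted p = 0.0287, limma). Adamts1, a secreted metalloprotease, was 2.23-fold lower (adjusted p = 0.0420, limma). Plau, the urokinase that activates plasmin, differed by -1.69 (adjusted p = 0.0611, limma). Beyond this list, the serine protease gene Prss46 fell to below background. It read -0.28 and -0.57 on the control arrays, and on the HF arrays -4.92 and -4.90, and was at least 14.6-fold lower (adjusted p = 0.0119, limma). Serpinb1a, an inhibitor of neutrophil serine proteases that was named after its values were seen, read 6.89 and 6.83 against 4.39 and 4.36 (-2.49 ± 0.22 SE, adjusted p = 0.0232, limma). Krt23, a keratin, and Il7r, a chain of the interleukin 7 receptor, fell to below background on both HF arrays, at least 6.16-fold and at least 11.6-fold lower. Il7r was above background on 1 of the control arrays, and its spot was in a dimmed patch of control replicate 1.

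The integrated stress response, in which ATF4 drives amino acid and redox genes, had 2 falls among 22 measured and a median of -0.44. Over all genes 0.661% fell and the median was -0.07. Trib3, a pseudokinase that feeds back on ATF4, read 4.05 and 3.92 on the control arrays and 2.58 and 2.76 on the HF arrays, 2.49-fold lower (adjusted p = 0.0287, limma). Chac1, which degrades glutathione, differed by -1.04 (adjusted p = 0.0421, limma) but did not pass after the spatial correction (adjusted p = 0.0552, limma). Atf4 itself differed by -0.88 without passing. Of 14 BCL-2 family genes 1 fell, Bcl2a1d, an inhibitor of apoptosis, which was 2.64-fold lower (4.51 and 4.37 against 3.13 and 2.94, adjusted p = 0.0278, limma). It is 1 of several near-identical copies. None of 28 NRF2 and antioxidant genes passed, and their median was 0.03. Hmox1, the haem oxygenase of that list, read 5.48 and 5.61 against 5.42 and 5.38, so its HF arrays lay just below its control arrays (-0.14, adjusted p = 0.628, limma).

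The classical inflammatory genes, which LPS induces, had few calls with HF alone. Tnf read 0.43 and 0.44 on the control arrays and 0.44 and 0.45 on the HF arrays, a difference of 0.01 with a standard error of 0.13. Nos2, the inducible nitric oxide synthase, read 1.91 and 1.93 against 0.73 and 0.96 and did not pass (-1.08, adjusted p = 0.0868, limma). Ptgs2, the inducible cyclooxygenase, read -0.71 and -1.14 against -2.11 and -2.03 and did not pass either (-1.15, adjusted p = 0.0951, limma). In both genes the HF arrays lay below the control arrays, and both passed lower after the spatial correction, with adjusted p of 0.0188 and 0.0220 (limma). Il6 was below background on all 4 arrays and Il1b on both control arrays, so no fold is given. Of 19 measured cytokine and mediator genes 1 fell, Il1rn, the antagonist of the interleukin 1 receptor, which was at least 2.48-fold lower (adjusted p = 0.0439, limma). Of 14 chemokines only Cxcl10 passed. Over all genes 0.661% fell. Actb, the cytoskeletal actin often used as a reference gene, read 10.03 and 9.56 on the control arrays and 9.23 and 9.03 on the HF arrays, lower on both without passing (-0.67, adjusted p = 0.175, limma).

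Of the 13 rises 8 had a gene symbol, and all 8 are described here. In the NF-kB list of 22 measured genes Nfkbia alone passed, where 0.719% of all genes did. It encodes IκBα, the inhibitor that NF-kB induces against itself, and read 3.22 and 3.25 on the control arrays and 4.21 and 4.27 on the HF arrays (2.01-fold higher, adjusted p = 0.0479, limma). It fell just outside the naming rule, at 0.99 against control replicate 2 where 1 was required, and was named after its value was seen. Nfkbie, a related inhibitor, differed by 0.83 without passing. In the list of 19 Toll-like receptor recognition genes only Lbp passed. Lbp, the protein that hands LPS to CD14, read -2.51 and -2.43 against -0.46 and -0.57 and was 3.88-fold higher (1.96 ± 0.23 SE, adjusted p = 0.0355, limma). Its spot was in row 35. Cd14 itself differed by -0.61 and Tlr2 by 0.48, neither passing.

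Wnt10a, a Wnt ligand, read -2.50 and -2.67 on the control arrays and -1.01 and -1.06 on the HF arrays and was 2.93-fold higher (1.55 ± 0.14 SE, adjusted p = 0.0232, limma). Prss16, a serine protease best known from the thymus, read -1.33 and -1.08 against 0.40 and 0.58, 3.25-fold higher. Hip1r, which links clathrin-coated pits to actin, was 2.07-fold higher, and the zinc finger gene Zbtb39 2.21-fold. Zbtb39 was above background on 1 of the control arrays, and its spot was in a dimmed patch of control replicate 1. Tyro3, a receptor for apoptotic cells, was 3.23-fold higher by 1 probe (adjusted p = 0.0248, limma), while its other probe differed by -0.74, so the probes disagree. Olfr810, an olfactory receptor gene, was not above background in either control sample and read -1.35 and -2.40 on the HF arrays, at least 6.17-fold higher (adjusted p = 0.0355, limma). Its spot was in row 64, inside the region of excess bright spots. Under a broader form of the exclusion it was left out. Without control replicate 1, Olfr810, Prss16, Fabp4 and Il1rn were the 4 of the 35 named genes that did not pass, with adjusted p from 0.0504 to 0.0549 (limma).

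Cell cycle genes were higher in value without any call. Of 32 mitosis genes 0 rose and 0 fell, yet 31 were higher, as were 9963 of all 22403 genes. Both HF arrays lay above both control arrays for 21 of them, as for 20.4% of all genes, and the median was 0.56. Cenpe, a kinetochore motor, read 4.13 and 4.31 on the control arrays and 4.92 and 5.08 on the HF arrays (0.78, adjusted p = 0.0888, limma). Prc1, which bundles spindle microtubules, differed by 0.70 (adjusted p = 0.108, limma). After the spatial correction 17 of the 32 passed higher, where 4.67% of all genes did, and without control replicate 1 it was 4, where 0.46% did. The mitosis median was above 0 under all 25 settings, from 0.46 to 0.94. DNA replication genes had a median of 0.42 over 31 measured, which was 0.22 after the spatial correction, and ribosome biogenesis genes 0.25 over 27. Neither had a call.

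Sterol synthesis ran the other way in value, again with no call among 26 measured genes. Its median was -0.35, and 15 genes had both HF arrays below both control arrays, as had 25.6% of all genes. Fdps, which makes farnesyl diphosphate, read 6.85 and 6.15 on the control arrays and 4.85 and 4.94 on the HF arrays (-1.61 ± 0.24 SE, adjusted p = 0.0580, limma). After the spatial correction 8 of the 26 passed lower, where 5.72% of all genes did, and 1 higher, where 4.67% did. With median scaling, which moved all genes to 0.32, the list's median was 0.04. Glycolysis and hypoxia genes had a median of -0.22 over 29 measured, oxidative phosphorylation genes -0.10 over 31 and lysosome genes -0.16 over 32, all with no call. With median scaling they were 0.16, 0.28 and 0.22, against 0.32 over all genes. In all, 15 of the 42 lists held at least 1 gene that passed. From the lists with no call, the naming rule took 54 genes of largest difference, and in 37 of them (68.5%) the control arrays were more than 1 log2 unit apart, against 19.8% of all genes and 8.57% of the 35 named genes that passed. After the spatial correction 15 of the 54 passed and 9 changed sign, so of the 54 only Fdps is described here. Some others of the 54 are given below among the results flagged for a closer look.

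**Figure D4:**
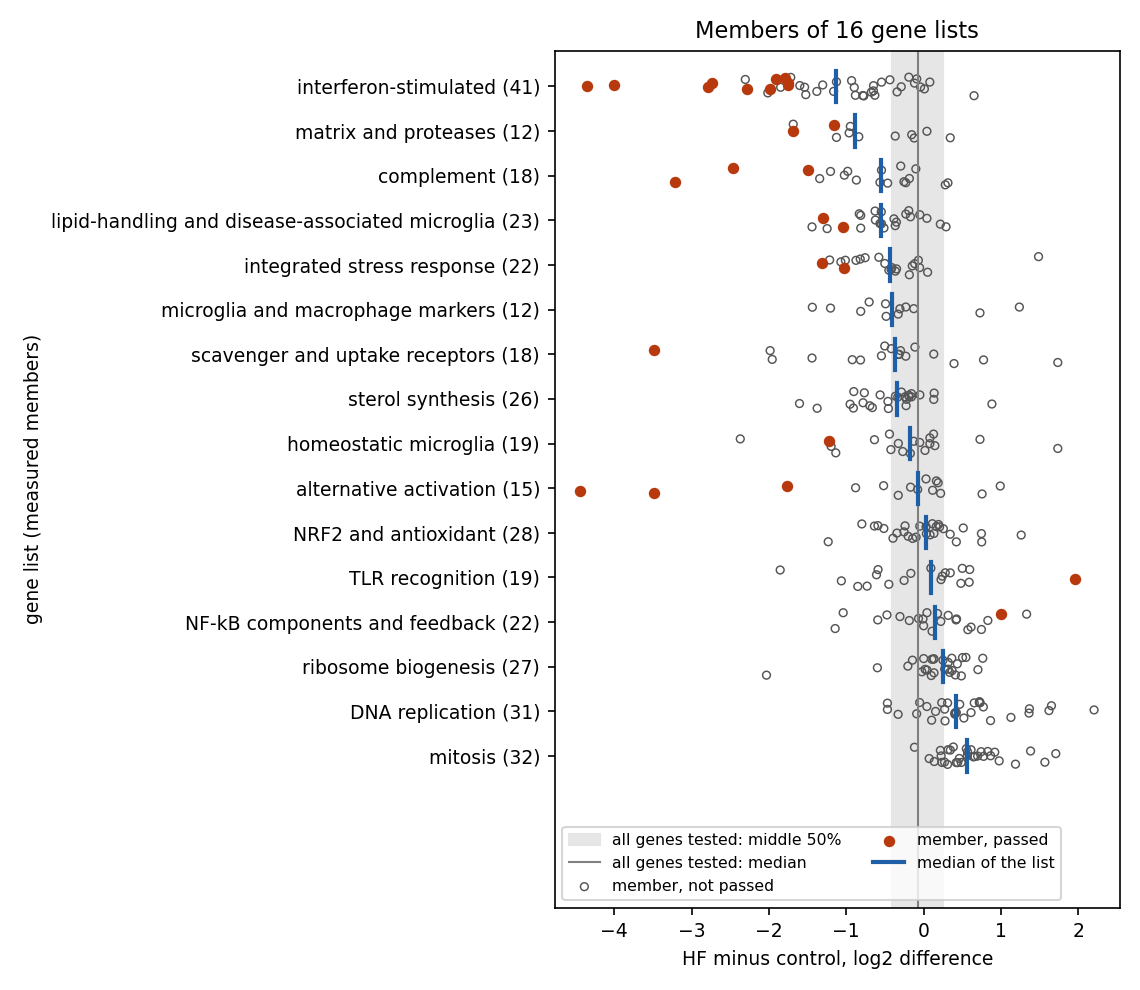
Differences (log2, HF minus control) of the measured members of 16 gene lists, with filled points for genes that passed, a blue bar for each list's median, and a grey band for the middle 50% of all genes. The interferon-stimulated median lies at -1.13 and the mitosis median at 0.56, with all genes at -0.07.

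The side comparison asked whether the genes changed by HF alone differed in the same direction when HF was added to LPS. It shares no array with HF against control, but all HF arrays share a slide row. Both comparisons also took each gene's spread from the same fit. Genes that passed in the first tend to have a small spread, so they pass more easily in the second than all genes do. Of the 148 falls, 140 were also lower in LPS with HF than in LPS, where 56.1% of all genes were lower, and 94 passed lower there, where 3.27% of all genes did. Of the 13 rises 9 were also higher, where 43.9% of all genes were, and 5 passed higher, where 3.0% of all genes did. In the same comparison 26 of the 41 interferon-stimulated genes fell, with a median of -1.86, and 13 of the 32 mitosis genes rose, with a median of 1.01. Csta2 was 5.17-fold lower there, Rtp4 6.83-fold lower and Wnt10a 3.24-fold higher, all passing (adjusted p from 0.00567 to 0.00892, limma).

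The C1q chains did not pass in cells given LPS. C1qc differed by -0.48 there and by -2.47 without LPS, and C1qb by -0.61 and -1.49. C1qa differed by -0.85 there, and without LPS only a bound is measured. The differences between the 2 settings, tested as an interaction, did not pass (adjusted p of 0.113 for C1qc and 0.356 for C1qb, limma), but both passed after the spatial correction (adjusted p of 0.0202 and 0.0392, limma). Cx3cr1 fell with HF alone and rose with HF in LPS-treated cells (1.76, adjusted p = 0.00877, limma), where it was below background with LPS alone. Its interaction had adjusted p = 0.0608, and 0.00754 after the spatial correction (limma). Tnf, level with HF alone, was 2.35-fold higher with LPS and HF than with LPS (adjusted p = 0.0110, limma), and its interaction had adjusted p = 0.146, and 0.0226 after the spatial correction (limma). Over all genes the interaction gave 0 calls (0.0%) with limma, with 2558 genes at an unadjusted p under 0.05. After the spatial correction 659 genes (2.94%) passed the interaction.

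**Figure D5:**
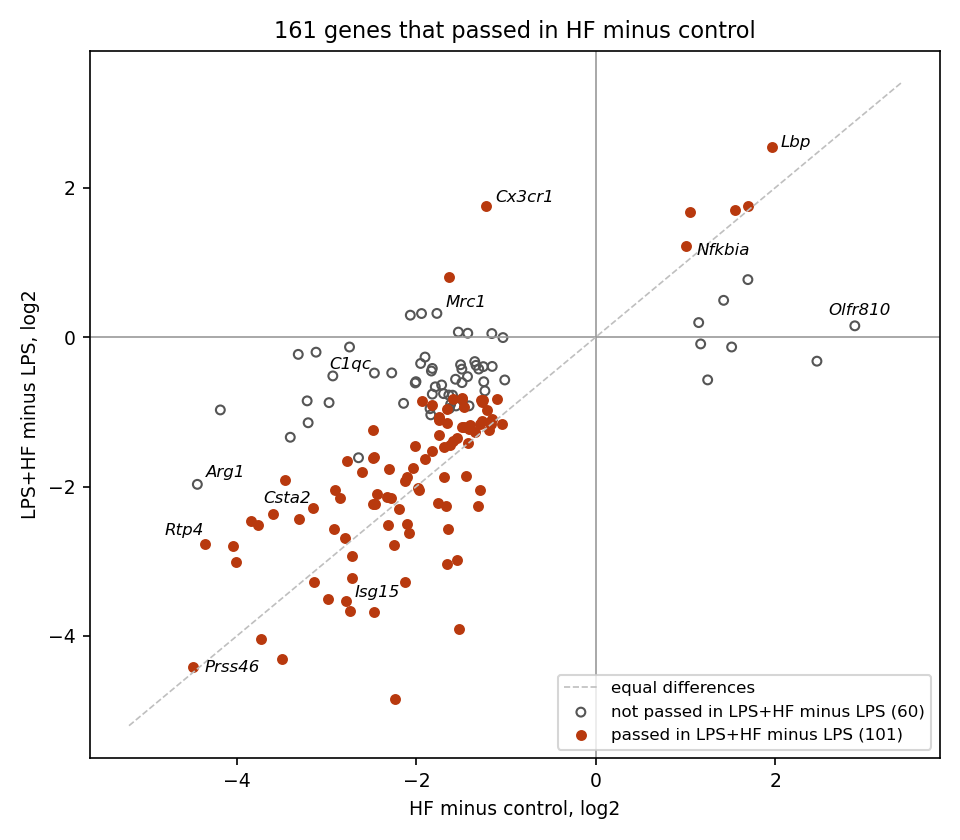
Differences of the 161 genes that passed, HF minus control on the horizontal axis and LPS with HF minus LPS on the vertical axis (both log2), filled where the gene also passed in the second comparison. Most falls lie below 0 on both axes: 140 of 148 were lower with LPS too, and 94 passed lower there.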

How the data were processed

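Total RNA of 8 BV-2 samples was hybridised to Agilent one-colour mouse arrays on 1 slide. The intensity values are the processed signals deposited by the authors, which Agilent Feature Extraction 11.5.1.1 had background-subtracted per the file headers. The log2 values of the series' value table deposited by the authors were used only as an alternative source. From the intensities, log2 signals minus each array's 75th percentile were computed for non-control probes. Probes were kept where both arrays of any group were well above background, probes bright only on HF arrays in spot rows 1 to 70 were left out (rows counted from 1), and a gene took its probe with the highest mean, which left 30256 probes and 22403 genes, 13780 with a symbol. Group means of all 8 arrays were fitted with limma 3.58.1 in R 4.3.3, with Benjamini-Hochberg adjustment and a threshold of 0.05. "At least" folds set a dim group to the lowest signal detected on the array, or its own if higher. Tested on simulated data for HF against control (22403 genes, 200 changed per draw), the fit found 14.3% of 2-fold and 64.7% of 4-fold changes. It also called 0.31% of the unchanged genes, where 0.719% of all genes passed in the real data. If the real data behaved like the simulated data, false calls would make up far more than 0.05 of the 161 genes.

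Named genes were the up to 12 largest changes in each direction that passed, had a symbol, separated the arrays, differed by at least 1 (log2) from control replicate 2 and passed after the spatial correction, up to 4 leading genes of each list with the same conditions, up to 2 of lists without a call, and 7 genes always given (Nos2, Tnf, Il6, Il1b, Ptgs2, Hmox1, Actb). Other list members given by value were chosen after their values were seen. The members and the 42 gene lists were chosen with earlier results of these data known. Alternatives covered scaling, background, filters, probes, spatial correction, arrays left out, replicate block and variance. Figures used matplotlib 3.10.9.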

Additional observations from a re-analysis of the deposited data

Results flagged for a closer look

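For 8 named genes the HF arrays lay on one side of the arrays without HF in untreated cells and on the opposite side in LPS-treated cells. None of the 8 passed the interaction test of limma, so the differences between the 2 settings are given as values. The interaction is the log2 difference of LPS with HF minus LPS, less that of HF minus control. Cx3cr1, the fractalkine receptor, had an interaction of 2.98 (-1.22 without LPS, 1.76 with LPS), with adjusted p = 0.0608 and, after the spatial correction, 0.00754 (limma). Mrc1, the mannose receptor, had 2.09 (-1.77 and 0.32), with adjusted p = 0.132 and 0.0104 (limma). Txnrd1, the thioredoxin reductase, had -1.9 (1.26 and -0.64), with adjusted p = 0.421 and 0.0473 (limma). Its spot was in a dimmed patch of control replicate 1, and the interaction was -0.93 after the spatial correction.

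The other 5 did not pass after the spatial correction either, with adjusted p from 0.0761 to 0.177 (limma). Sel1l, a subunit of the degradation machinery of the endoplasmic reticulum, had an interaction of -2.65, which was -0.53 after the correction, and its HF difference of 2.49 was 0.43 against control replicate 2 alone. The class I antigen-presenting gene H2-D1 had -1.18, or -0.68 after the correction. Blvra, the biliverdin reductase, had 1.12 (0.74 after the correction), Slc39a4, a zinc importer, 0.9 (0.85), and Cnp, an oligodendrocyte marker, 0.752 (0.59). The spots of Sel1l and H2-D1 were also in dimmed patches of control replicate 1.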

How the results depend on the processing

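Against 161 genes that passed, median scaling left 12, normexp background correction with quantile normalization 8, no filter on dim probes 1, and array weights or the 4 HF and control arrays alone 0 (1560 and 1684 at an unadjusted p under 0.05). The spatial correction gave 2328 (1282 lower, 1046 higher), with a replicate block 1291, and the fit without both arrays marked by the quality report 61. Leaving out 1 array at a time gave 0 to 10140, the highest without control replicate 2 and 448 without control replicate 1. The replicate block alone gave 10; same-numbered control and HF arrays had a correlation of deviations of 0.269 (0.016 after the spatial correction) and the other pairs of groups -0.089 to 0.048, so the numbers were not taken as pairs. The interferon-stimulated genes that fell, 10 of 41, became 2 with median scaling, 0 with normexp, no filter, array weights or 4 arrays, 31 with the spatial correction, 25 with it and the block, 3 without both marked arrays, 1 with the replicate block, and 0 to 26 with 1 array left out. The interaction, 0 genes, gave 1 with each gene's probes averaged, 12 with the rows 1 to 70 probes kept, 659 with the spatial correction, 60 with it and the block, 2 without both marked arrays, and 0 to 7914 with 1 array left out. With 1 array left out, its partner was assumed to vary like the other groups. The cause of these shifts was not tested. The other settings stayed within 1.5 times of 161, from 111 (quantile normalization) to 213 (probes above background on all arrays).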

Other observations

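Some falls belong to no list described above and were picked after their values were seen. Wfdc17, a small secreted protein of macrophages, read 4.92 and 4.82 on the control arrays and 2.82 and 2.75 on the HF arrays, a fall of 2.08 on the log2 scale (adjusted p = 0.0248, limma), and Wfdc18 differed by -2.44 (adjusted p = 0.0252, limma). The other 6 of 8 measured Wfdc genes did not pass, and over all genes 0.661% fell. Apol9b, an interferon-inducible apolipoprotein L gene, read -0.28 and -0.13 against -3.24 and -3.14, and its near copy Apol9a differed by -1.82 without passing. Apoc2, the cofactor of lipoprotein lipase, differed by -1.24 (adjusted p = 0.0377, limma), while Apoc3 and Apoc4 did not pass.

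Some lists were higher in value without a call. Heat shock chaperones had a median of 0.28 over 16 measured genes, with both HF arrays above both control arrays for 9. The p53 targets had 0.22 over 18, with 12. The same held for 20.4% of all genes. Cpt1a, the gate of mitochondrial fatty acid oxidation, read 1.95 and 1.73 on the control arrays and 2.78 and 2.86 on the HF arrays (0.98, adjusted p = 0.0583, limma). These values come with the same slide row arrangement as the rest.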
